A study of Mus musculus with 18 samples.

Results

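Sox2, Sox9, Hes1, Hes5, Fabp7, Notch1, Prom1, Eomes, Sox4 and Sox11 are genes of neural progenitors and early neurons, and their transcripts were followed in the brains of mice that lack Brca1 in the neural lineage. These 10 genes, of 18193 with a probe set of their own, were taken with every probe set annotated to exactly 1 of them, whatever its signal. Mice were at postnatal day 7, and 6 groups of 3 arrays were measured. The knockout groups carried a Brca1 null allele, made with an inverted neo cassette in exon 11, and a floxed allele that loses exons 5 to 13 where Cre, driven by the nestin promoter, is active. The wild-type groups are named only as such, and whether they carried Cre or a floxed allele is not stated. Nestin drives Cre in neural progenitors and their progeny, so cells of other origin, microglia among them, largely keep the floxed allele whole. Cortex RNA was read on 2 chips, A and B, with replicate numbers shared. Other samples have the title rest and the source brain, and were read on a larger array with the content of both chips. What rest includes is not stated, nor whether same-numbered arrays share an animal, so p-values measure the spread between these arrays. The signal of an array came from all cells of a piece of tissue, so fewer cells of a type and less RNA per cell cannot be told apart.

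Progenitors of the cortex, called radial glia, divide next to the ventricles and are kept undifferentiated by Notch signalling. A Notch receptor that has met its ligand is cut, and its inner part joins the DNA-binding protein RBPJ to switch on Hes genes, whose proteins repress the genes for neuronal fate. Cells that leave this state pass through Eomes-positive intermediate progenitors and then, as young neurons, express Sox4 and Sox11. At postnatal day 7 most cortical neurons have been born, and astrocytes, which keep Sox2, Sox9, Hes5 and Fabp7, are being added; granule neurons of the cerebellum and olfactory bulb are still forming.

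The share of probe sets with a listed signal was 54% to 58% over the A chip arrays, 33.6% to 42.6% over the B chip arrays and 49.2% to 51.6% over the rest arrays; the other cells are blank. Knockout replicate 3 had the highest ratio of 3' to 5' actin signal on the B chip (2.4, against 1.86 to 2.16 on the other 5 arrays) and in the rest table (1.96, against 1.64 to 1.73). For the Brca1 probe set listed on all arrays, knockout minus wild type was 0.25 on the log2 scale in cortex (SE 0.159, limma adjusted p = 0.496) and 0.03 in the rest table (SE 0.17, limma adjusted p = 0.978); the exons it reads are not given. Eif2s3y, a Y-linked gene, was listed in knockout replicates 1 and 2 of every table and on none of the other arrays, so genotype is partly joined with sex. Of 6 cortical neuron markers on the A chip all 6 were tested, against 3 of 14 markers of cerebellum, hindbrain, midbrain and thalamus. Of those 14, 13 were tested in the rest table, as were 6 of the 8 cortical neuron markers on that array.

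The 10 genes had 19 probe sets on the A chip, 8 on the B chip and 27 in the rest table. Blank on all arrays of their table were 3, 3 and 5 of them. A probe set was tested where at least 2 arrays of each genotype listed it, which held for 15, 5 and 21. Probe sets annotated to Eomes were not tested in cortex, and all 5 probe sets tested on the B chip belong to Sox11. Signals are given after scaling each array of a table to a common mean, and log2 changes are knockout minus wild type on the log2(signal + 16) scale, with the standard error (SE) or the 95% interval of the limma fit. Signals of different probe sets, or of different tables, are not on a common scale.

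No member passed the test. On the A chip 0 of 15 member probe sets had an adjusted p under 0.05 in limma, where 3.02% of all 12065 tested probe sets had. On the B chip it was 0 of 5, where 0.281% of 7838 had, and in the rest table, 0 of 21, where 0.313% of 21407 had. The lowest limma adjusted p values among members were 0.115 on the A chip, 0.205 on the B chip and 0.168 in the rest table. At an unadjusted p under 0.05 there were 4 of 15 member probe sets on the A chip (15.7% of all), 4 of 5 on the B chip (7.39% of all) and 9 of 21 in the rest table (10.5% of all). All 4 on the B chip and all 9 in the rest table had negative log2 changes, as 3.15% and 6.04% of all tested probe sets had at that threshold. Of the 4 on the A chip, those of Hes1, Prom1 and Sox9 were positive (8.99% of all) and that of Sox11 negative (6.75% of all). Several probe sets read the same gene, so these counts are not counts of separate genes. The median log2 change was -0.10 over the 15 member probe sets of the A chip, -0.47 over the 5 of the B chip and -0.25 over the 21 of the rest table, against -0.01, 0.00 and 0.00 over all probe sets tested.

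**Figure D1:**
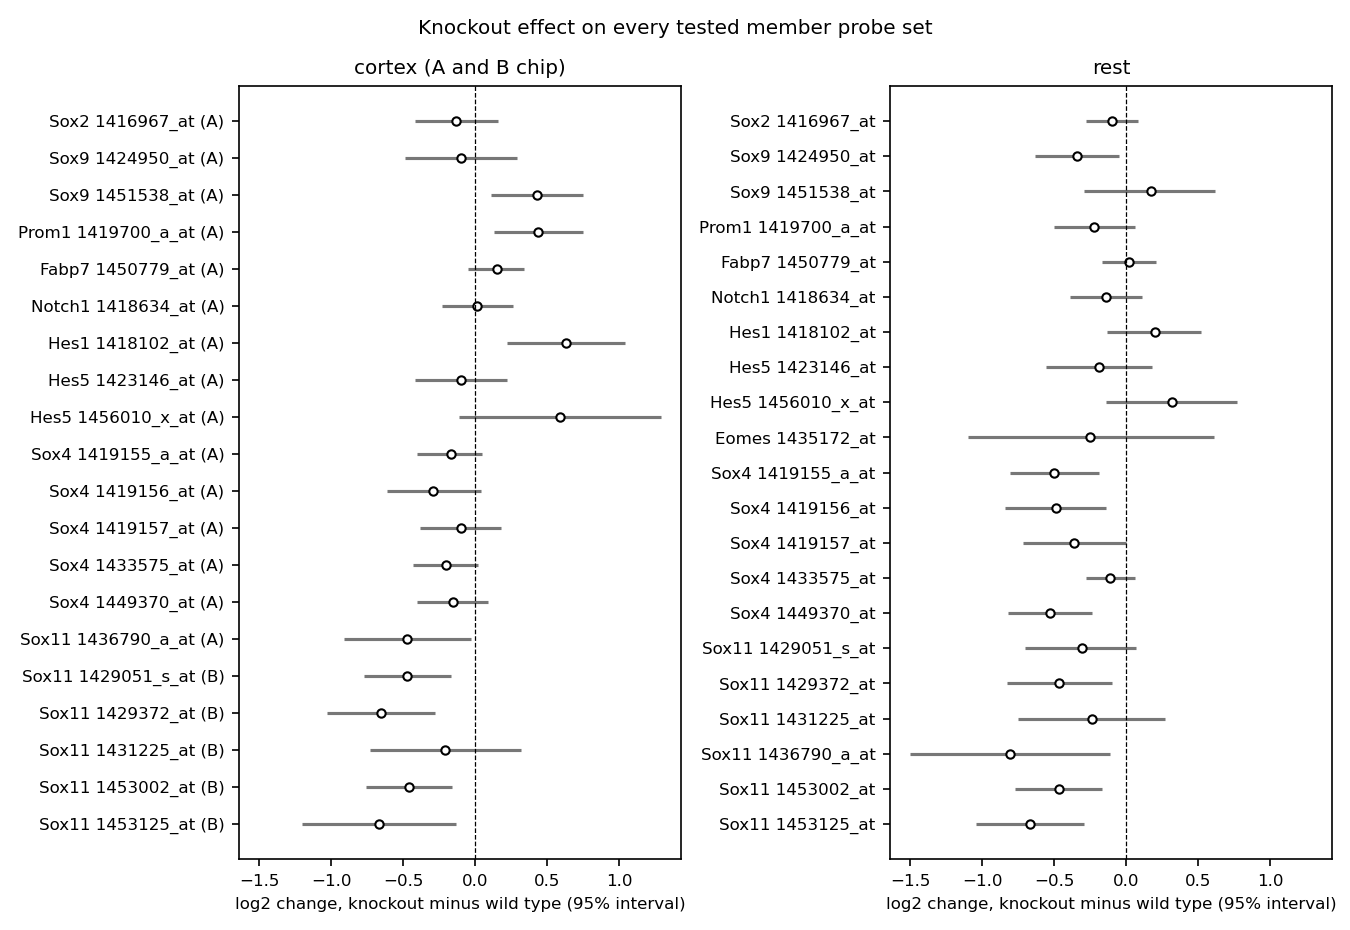
The log2 change (knockout minus wild type, points) with its 95% interval (lines) for every tested member probe set, in cortex on the left, where A and B name the chip, and in the rest table on the right. All Sox4 and Sox11 points lie left of 0 in both panels, and open circles stand for an adjusted p above 0.05, which all points had.

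Sox11 and Sox4 are closely related transcription factors that young neurons use to switch on neuronal genes. Each of their tested probe sets had a negative log2 change, in cortex and in the rest table alike. Leaving out 1 array turned the sign of 2 of them, Sox4 1419157_at in cortex (0.01 without wild-type replicate 2) and Sox11 1431225_at in the rest table (0.04 without knockout replicate 3). The 250 bases before the start of each gene are shown for that shared sign, and those of Hes5 because it is a direct target of Notch. They are RefSeq sequences of GRCm38.p6 from a table in which 8 of the 10 genes were matched, and each is written 5' to 3' along its gene. Capitals mark any of these motifs on either strand: TGGGAA, the core that RBPJ recognises; GGGCGG, the site of Sp family factors; CCAAT, the site of the factor NF-Y; and TATAAA, the element that positions transcription at many promoters. In Sox4 a CCAAT and the TGGGAA overlap and form 1 run of capitals.
Sox11 (chr12:27342719-27342968, minus strand): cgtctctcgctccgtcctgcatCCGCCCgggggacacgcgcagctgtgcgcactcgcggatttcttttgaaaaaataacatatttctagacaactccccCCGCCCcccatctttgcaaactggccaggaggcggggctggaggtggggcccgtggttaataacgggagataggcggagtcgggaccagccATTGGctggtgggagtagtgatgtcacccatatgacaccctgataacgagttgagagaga
Sox4 (chr13:28953700-28953949, minus strand): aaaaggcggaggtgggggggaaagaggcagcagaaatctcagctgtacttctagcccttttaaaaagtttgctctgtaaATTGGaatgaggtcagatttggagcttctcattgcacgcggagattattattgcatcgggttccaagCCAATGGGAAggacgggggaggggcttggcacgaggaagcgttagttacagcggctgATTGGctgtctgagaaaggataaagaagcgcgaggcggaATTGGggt
Hes5 (chr4:154960673-154960922, plus strand): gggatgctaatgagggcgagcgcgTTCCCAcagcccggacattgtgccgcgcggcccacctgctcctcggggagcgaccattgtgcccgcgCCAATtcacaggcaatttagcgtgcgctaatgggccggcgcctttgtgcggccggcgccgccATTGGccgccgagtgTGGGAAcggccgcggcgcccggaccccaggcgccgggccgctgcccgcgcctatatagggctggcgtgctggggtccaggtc

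Sox4 held 4 CCAAT and 1 TGGGAA, Sox11 held 1 CCAAT and 2 GGGCGG, and Hes5 held 2 CCAAT and 2 TGGGAA. Of the 9 windows of the 8 genes, 7 held CCAAT (33.8% of all 32851 windows of the same length), 4 held TGGGAA (21.6%), 4 held GGGCGG (32.7%) and 0 held TATAAA (12.4%). A match describes letters and does not show that a factor binds there.

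Sox11 had 6 probe sets tested in cortex, and all 6 had a lower mean in knockout arrays. Probe set 1429372_at of the B chip read 484.4, 378.3 and 345 in knockout cortices, against 754.6, 620.4 and 548.1 in wild-type cortices. Probe set 1453002_at read 619.7, 570.3 and 522.7 in knockout cortices, against 755.4, 817.7 and 803.3 in wild-type cortices. In both, every knockout array lay below every wild-type array. The log2 changes were -0.65 for 1429372_at (95% interval -1.03 to -0.28, limma adjusted p = 0.205) and -0.46 for 1453002_at (-0.76 to -0.16, limma adjusted p = 0.33), so neither passed.

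The other B chip probe sets of Sox11 showed the same order. Probe set 1429051_s_at read 705.6, 576.5 and 621.6 in knockout cortices, against 909, 916.7 and 818.5 in wild-type cortices (log2 change -0.47, limma adjusted p = 0.33). Probe set 1453125_at read 1185.4, 1094.7 and 491.8 in knockout cortices, against 1487.8, 1197.2 and 1467.7 in wild-type cortices (log2 change -0.67, limma adjusted p = 0.537). Knockout replicate 3, the low value of 491.8, is the array with the highest actin ratio, and its part in the result was not tested; without it the log2 change of 1453125_at was -0.27. Probe set 1431225_at was listed on 2 arrays of each genotype, at 188.2 and 199.5 in knockout and 239.3 and 213.2 in wild-type cortices (log2 change -0.21, limma adjusted p = 0.937). Over the listed B chip arrays the groups did not overlap in any of these 5 probe sets, where 7.29% of all tested probe sets read lower in knockout without overlap.

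The A chip has a single Sox11 probe set, 1436790_a_at, which read 191.6, 111.9 and 170.7 in knockout cortices, against 253.6, 251.9 and 166.3 in wild-type cortices. Wild-type replicate 3 lay among the knockout values, and the log2 change was -0.47 (95% interval -0.91 to -0.03, limma adjusted p = 0.289). It was -0.26 without knockout replicate 2.

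Of the 6 Sox11 probe sets tested in the rest table, all 6 had lower means in knockout arrays, and 3 did not overlap, where 9.13% of all tested probe sets read lower in knockout without overlap. Probe set 1453125_at read 231.4, 344.9 and 253 in knockout samples, against 419.1, 381.1 and 540.7 in wild-type samples (log2 change -0.67, 95% interval -1.04 to -0.29, limma adjusted p = 0.184). Probe set 1453002_at read 251.4, 269.7 and 230.2 in knockout samples, against 291.1, 378.3 and 399.5 in wild-type samples (log2 change -0.47, limma adjusted p = 0.241). Every knockout sample lay below every wild-type sample in both. The largest change, -0.81, was that of 1436790_a_at (limma adjusted p = 0.396), which read 87.7, 83.6 and 78 in knockout samples, against 103, 299.3 and 122.6 in wild-type samples. Without wild-type replicate 2, the high value, it was -0.38. The other 3 overlapped, with log2 changes of -0.47 for 1429372_at, -0.31 for 1429051_s_at and -0.24 for 1431225_at (limma adjusted p from 0.342 to 0.776). Without knockout replicate 1, 1429051_s_at stood at -0.48, and without wild-type replicate 3 at -0.16. The knockout effects on the 5 probe sets shared by the B chip and the rest table differed by -0.18 to 0.04 on the log2 scale, with intervals that together spanned -0.75 to 0.76 (limma interaction, adjusted p from 0.916 to 0.999). Of these 5, 0 had an adjusted p under 0.05 and 0 an unadjusted one, where 0.00% and 7.94% of all 6563 shared probe sets had.

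**Figure D2:**
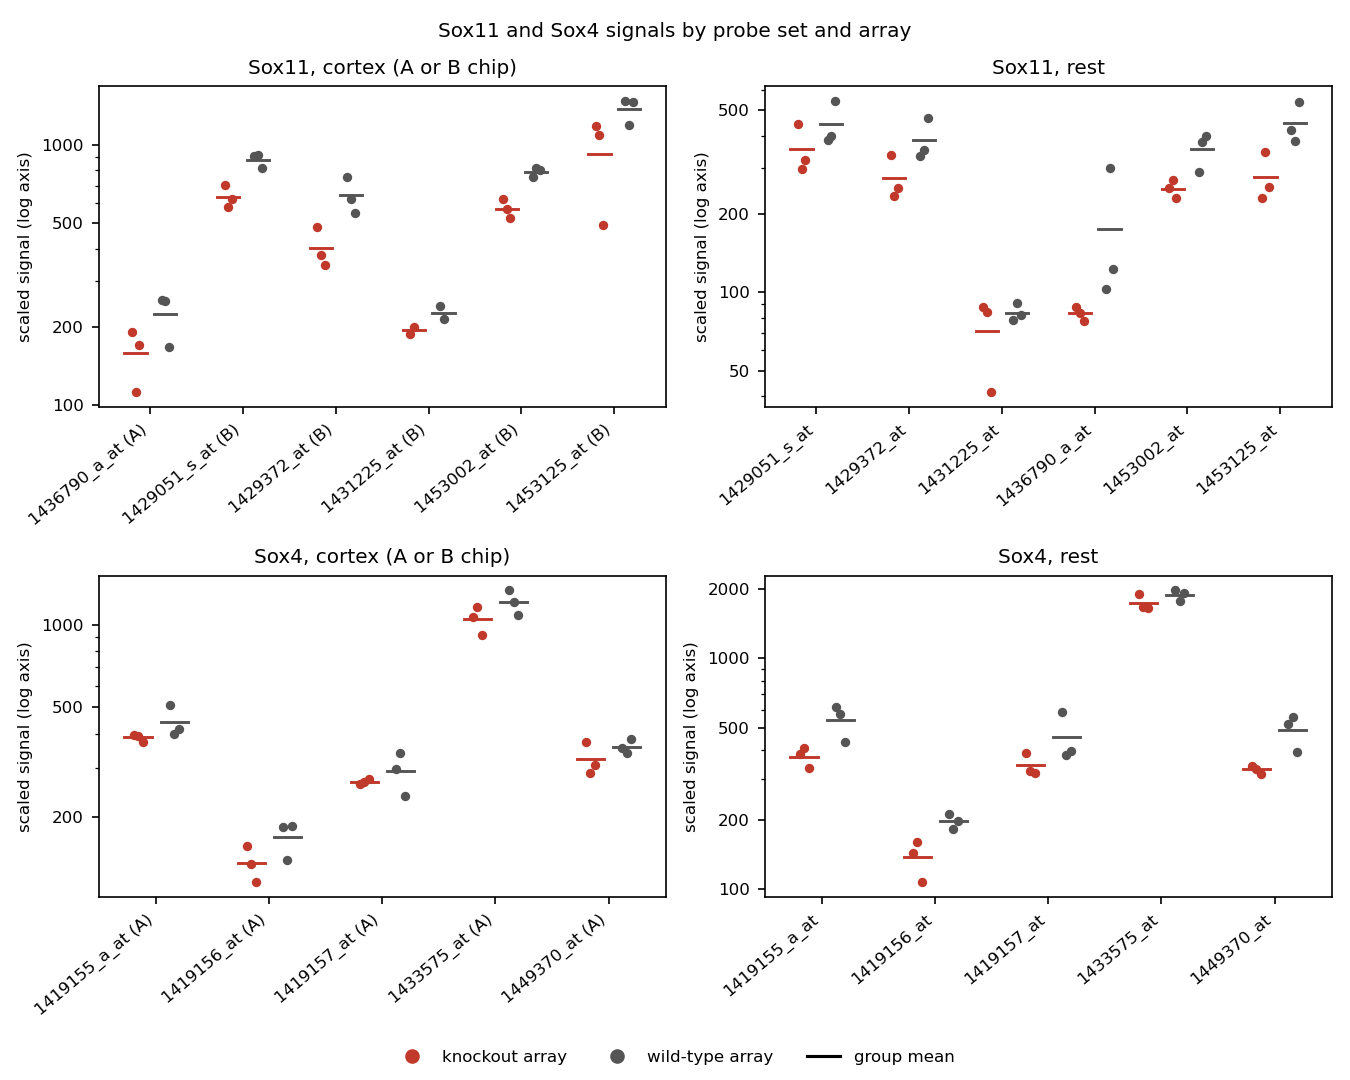
Scaled signal (log axis) of each array for every tested probe set of Sox11 (top) and Sox4 (bottom), in cortex on the left and the rest table on the right, with knockout arrays left of wild-type arrays and bars at the group means. The knockout mean lies below the wild-type mean for each probe set, and the low knockout point of Sox11 1453125_at on the B chip is 491.8.

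Sox4 had 5 probe sets tested on the A chip, with log2 changes from -0.29 to -0.10 and limma adjusted p from 0.366 to 0.762. Probe set 1433575_at read 1064.6, 1156 and 920.2 in knockout cortices, against 1331.7, 1208.4 and 1084.3 in wild-type cortices (log2 change -0.20, 95% interval -0.43 to 0.02). These groups overlapped, as did those of 3 more Sox4 probe sets. The exception was 1419155_a_at, at 397.7, 394.9 and 374.9 in knockout cortices, against 509.9, 401.7 and 417.9 in wild-type cortices, where the nearest arrays of the groups lay close together; 10.8% of all tested probe sets read lower in knockout without overlap. Its log2 change was -0.17 (95% interval -0.40 to 0.05, limma adjusted p = 0.464), and -0.07 without wild-type replicate 1.

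Sox4 changes in the rest table ranged from -0.53 to -0.11, and 3 of 5 probe sets did not overlap, beside the 9.13% of all tested probe sets that read lower in knockout without overlap. Probe set 1449370_at read 342.3, 332.8 and 316.5 in knockout samples, against 520.1, 557.6 and 393 in wild-type samples (log2 change -0.53, 95% interval -0.82 to -0.24, limma adjusted p = 0.168). Probe set 1419155_a_at read 383.8, 407.8 and 335 in knockout samples, against 616.7, 574 and 433.8 in wild-type samples (log2 change -0.50, limma adjusted p = 0.229). In each, the wild-type sample nearest to the knockout samples was replicate 3. Probe set 1419156_at read 144.3, 160.5 and 107.6 in knockout samples, against 211.3, 182.4 and 197.4 in wild-type samples (log2 change -0.49, limma adjusted p = 0.302). The smallest Sox4 change was that of 1433575_at, which read 1892.2, 1669.4 and 1649.6 in knockout samples, against 1963.7, 1767.1 and 1907.1 in wild-type samples, which is -0.11 on the log2 scale (95% interval -0.28 to 0.06, limma adjusted p = 0.663). For 1419157_at the change was -0.36 (log2, limma adjusted p = 0.472), and -0.17 without wild-type replicate 1. The difference between the cortex and rest effects was 0.38 for 1449370_at (SE 0.176, limma interaction adjusted p = 0.474) and -0.09 to 0.33 for the other 4.

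Sox2 keeps progenitors from differentiating and remains on in astrocytes. It read 234.7, 294.5 and 243.4 in knockout cortices, against 318.9, 237.5 and 298.9 in wild-type cortices. Rest signals of Sox2 were 735.1, 693.5 and 680.8 in knockout samples, against 795.5, 713.1 and 756.4 in wild-type samples. The groups overlapped in both tables. The log2 changes were -0.13 in cortex (95% interval -0.42 to 0.16, limma adjusted p = 0.688) and -0.10 in the rest table (-0.28 to 0.08, limma adjusted p = 0.723), so the intervals leave out a fold below 0.745 in cortex and below 0.826 in the rest table. Fabp7, a fatty acid binding protein of radial glia and young astrocytes, had intervals about as narrow. It read 3079.4, 3582.6 and 2891.6 in knockout cortices, against 2657.1, 2843.5 and 3093.4 in wild-type cortices (log2 change 0.15, 95% interval -0.05 to 0.34, limma adjusted p = 0.463). Rest signals of Fabp7 were 6581.8, 7357.2 and 6416 in knockout samples, against 7238.1, 5962.2 and 6900.2 in wild-type samples (log2 change 0.02, 95% interval -0.17 to 0.21, limma adjusted p = 0.959). The Fabp7 groups overlapped in both tables.

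Sox9, which starts the astrocyte programme in progenitors, was read by 2 tested probe sets whose changes had opposite signs. Probe set 1451538_at read 83, 112.2 and 92.3 in knockout cortices, against 60.6, 72.5 and 66.8 in wild-type cortices, without overlap (log2 change 0.43, 95% interval 0.11 to 0.75, limma adjusted p = 0.167). Probe set 1424950_at read 118, 118.2 and 90.3 in knockout cortices, against 116.1, 91.1 and 150.5 in wild-type cortices (log2 change -0.10, 95% interval -0.49 to 0.29, limma adjusted p = 0.838). The separated probe set in the rest table was the other: 1424950_at read 220.5, 192.9 and 207 in knockout samples, against 281.7, 226.6 and 293.5 in wild-type samples (log2 change -0.34, limma adjusted p = 0.388). There 1451538_at read 97.4, 141.1 and 178.5 in knockout samples, against 123.5, 134.4 and 100.6 in wild-type samples (log2 change 0.17, limma adjusted p = 0.837). The opposite signs rest on single arrays: 1424950_at in cortex was 0.06 without wild-type replicate 3 and 0.01 without knockout replicate 3, and 1451538_at in the rest table was -0.01 without knockout replicate 3. Groups without overlap and higher in knockout made up 11.6% of all tested probe sets of the A chip, and groups without overlap and lower in knockout the 9.13% given above in the rest table. A further Sox9 probe set, 1433889_at, was blank on all arrays of the B chip and the rest table.

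Prom1, a membrane protein of progenitor and ependymal cell surfaces, gave log2 changes of opposite sign in the 2 tissues. It read 137.5, 159.8 and 125.7 in knockout cortices, against 110, 85.5 and 103.3 in wild-type cortices, so all knockout cortices lay higher (log2 change 0.44, 95% interval 0.13 to 0.75, limma adjusted p = 0.138). Rest signals of Prom1 were 217.2, 177.1 and 215.6 in knockout samples, against 255.4, 222.3 and 240.4 in wild-type samples, so all knockout samples lay lower (log2 change -0.22, 95% interval -0.50 to 0.06, limma adjusted p = 0.589). Without knockout replicate 2 of that table it was -0.13. Of all tested probe sets, 11.6% lay higher in knockout without overlap on the A chip, and 9.13% lower in the rest table. Cortex and rest samples were read on different array types, so tissue and array type cannot be told apart here. The difference between the effects, cortex minus rest, was 0.67 (95% interval 0.28 to 1.05, limma interaction, unadjusted p = 0.00254, adjusted p = 0.205). It did not pass, and 0 of the 15 member probe sets shared by these tables did, where 0.0502% of all 11959 shared probe sets had an adjusted p under 0.05. At an unadjusted p under 0.05 there were 2, Prom1 and Sox4 1449370_at, where 10.5% of all had. Of the ependymal markers 2 of 5 were tested on the A chip and 0 passed, with Rarres2 at 0.32 and Foxj1 at 0.14. Of 12 such markers in the rest table, 8 were tested and 0 passed, with a median log2 change of -0.06. Whether these cells have a part in the Prom1 values was not tested.

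The Notch genes were Notch1, the receptor, and its targets Hes1 and Hes5. Notch1 read 213.3, 223.5 and 184.4 in knockout cortices, against 203.9, 197.7 and 212.6 in wild-type cortices (log2 change 0.01, 95% interval -0.23 to 0.26, limma adjusted p = 0.972). Rest signals of Notch1 were 350.9, 359.1 and 357.9 in knockout samples, against 455.7, 389.7 and 343.7 in wild-type samples (log2 change -0.14, 95% interval -0.39 to 0.11, limma adjusted p = 0.731). The groups overlapped in both tables, and a further Notch1 probe set, 1418633_at, was blank throughout.

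Hes1 had the lowest adjusted p among the member probe sets of the A chip. It was blank in knockout replicate 1 and read 126.2 and 117.5 in the other knockout cortices, against 79.5, 87.2 and 55.8 in wild-type cortices. The listed knockout arrays lay above all wild-type arrays, as they did for 11.6% of all tested probe sets of the A chip. Groups lie apart more readily where, as here, an array is blank. The log2 change over the 5 listed arrays was 0.63 (95% interval 0.22 to 1.04, limma adjusted p = 0.115). With blanks set to a low signal the log2 change of Hes1 was 0.25. Among rest samples, where no array was blank, Hes1 read 134.8, 135.7 and 126.5 in knockout samples, against 123, 95.4 and 124 in wild-type samples (log2 change 0.20, 95% interval -0.13 to 0.52, limma adjusted p = 0.703). Those groups did not overlap either, as was the case, higher in knockout, for 8.42% of all tested probe sets of that table.

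Hes5, whose window with 2 TGGGAA motifs is shown above, represses neuronal genes as Hes1 does. Probe set 1423146_at read 76.2, 91.9 and 74.1 in knockout cortices, against 100.9, 83.7 and 79 in wild-type cortices (log2 change -0.10, 95% interval -0.42 to 0.22, limma adjusted p = 0.798). Its rest signals were 188.3, 190 and 163.8 in knockout samples, against 265.8, 202 and 166.4 in wild-type samples (log2 change -0.19, limma adjusted p = 0.755). The groups overlapped in both. The other Hes5 probe set, 1456010_x_at, gave 98.7 and 130.7 in the knockout cortices that listed it and 106.6 and 44.4 in the wild-type cortices that did (log2 change 0.59, limma adjusted p = 0.405). It read 276.4, 355.7 and 313 in knockout samples of the rest table, against 329.7, 172.8 and 268 in wild-type samples (log2 change 0.32, limma adjusted p = 0.647). The suffix x marks a set with probes that can also bind other transcripts, and the 2 Hes5 probe sets had opposite signs in both tables. Without wild-type replicate 1, 1423146_at was -0.01 in cortex and -0.02 in the rest table, and without wild-type replicate 2 1456010_x_at was 0.07 in the rest table.

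**Figure D3:**
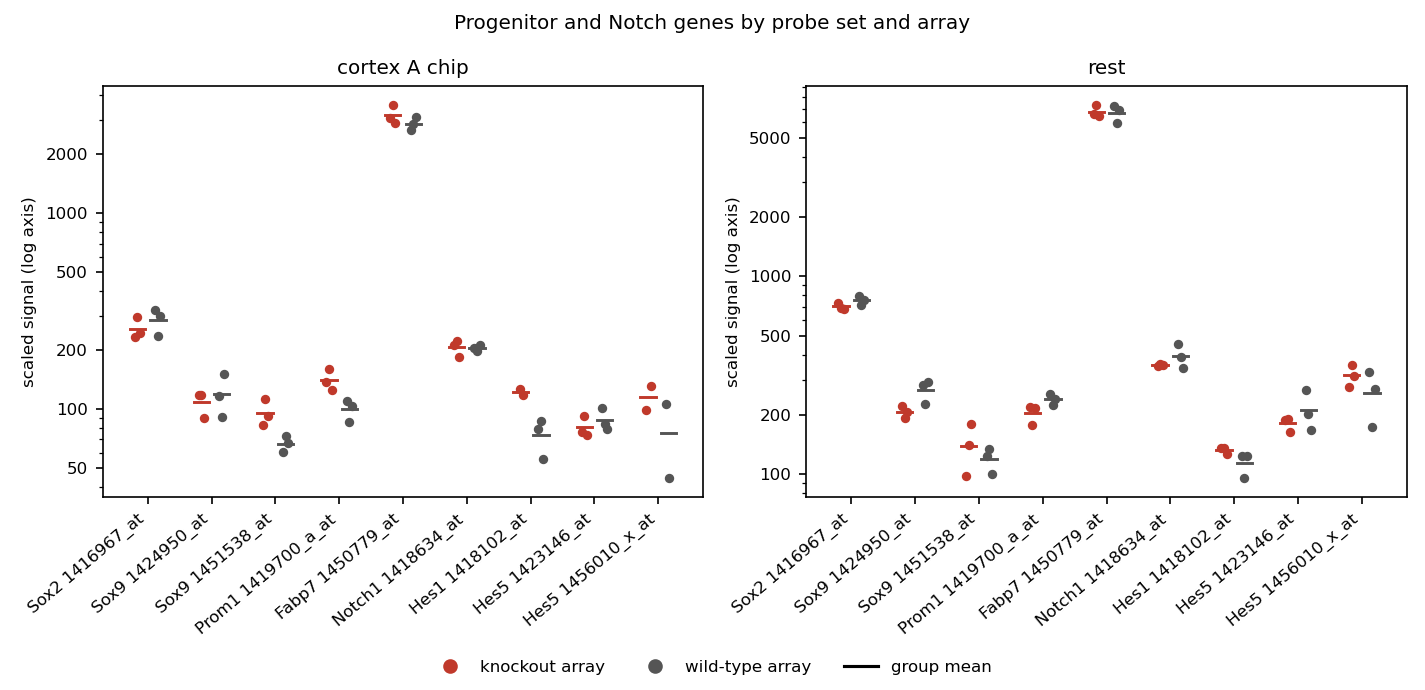
Scaled signal (log axis) of each array for the tested probe sets of Sox2, Sox9, Prom1, Fabp7, Notch1, Hes1 and Hes5, on the A chip (cortex) on the left and in the rest table on the right, with knockout arrays left of wild-type arrays and bars at the group means. Prom1 knockout points lie above the wild-type points in cortex and below them in the rest table, while Sox2, Fabp7 and Notch1 overlap in both.

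Eomes marks intermediate progenitors of the cortex and, in the cerebellum, unipolar brush cells. In cortex its probe set 1435172_at was listed on 1 knockout array, at 87.1, and 1 wild-type array, at 74, and 1426001_at was blank on all 6. Probe set 1435172_at of the rest table read 111.1 and 127.6 in knockout replicates 1 and 3 and was blank in replicate 2, against 216.8, 70.1 and 189.4 in wild-type samples. These groups overlapped, with wild-type samples spread more widely than knockout samples and a log2 change of -0.25 (95% interval -1.10 to 0.61, limma adjusted p = 0.875). Probe set 1426001_at was listed there on 1 knockout array, at 51.6, and 1 wild-type array, at 138.2. The summed signal of 10 markers of cerebellum, hindbrain, midbrain and thalamus also varied within groups, at 5317 to 7423 in knockout samples and 5492 to 10215 in wild-type samples. Its part in the Eomes values was not tested.

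Other genes of the same pathways were read through lists, with the brightest tested probe set of each gene. That probe set can differ between tables. Of all 12065 probe sets tested on the A chip, 278 rose and 86 fell with a limma adjusted p under 0.05. These counts were 18 and 4 of 7838 on the B chip, and 31 and 36 of 21407 in the rest table. Of 26 other genes in the Notch pathway list tested on the A chip 1 passed and rose, Id4, and 0 fell. Id4 inhibits neurogenic transcription factors and is not itself a Notch receptor, ligand or Hes gene. It averaged 705.4 in knockout and 509 in wild-type cortices (log2 change 0.46, limma adjusted p = 0.0314). The receptor Notch2 stood at 0.58 (limma adjusted p = 0.0564). At an unadjusted p under 0.05, 5 of the 26 rose and 2 fell, beside 8.99% and 6.75% of all tested probe sets. The median log2 change of that list was 0.03. Of 29 genes of the Notch pathway list tested in the rest table, 0 passed, with a median of -0.01. There the Notch target Nrarp stood at -0.26 (limma adjusted p = 0.247). Of 7 other Sox genes tested on the A chip 0 passed, with Sox10, a factor of oligodendrocyte lineage cells, at -0.62 (limma adjusted p = 0.0528). Sox10 was the 1 of 12 that passed in the rest table, and it fell, averaging 341 in knockout and 746.7 in wild-type samples (log2 change -1.10, limma adjusted p = 0.00507). It was read there by another probe set than on the A chip.

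Among 19 other radial glia genes on the A chip Vim, an intermediate filament that reactive astrocytes and meningeal cells also make, rose (log2 change 0.76, limma adjusted p = 0.000951) and the rest did not pass, with a list median of -0.03. Of 23 tested in the rest table, 0 passed, with a median of -0.10, and Nfix, a factor of glial differentiation, had the lowest p (log2 change -0.72, limma adjusted p = 0.052). Of the neurogenic and intermediate progenitor genes 0 of 10 passed on the A chip and 0 of 12 in the rest table. Neurod1, which drives granule neuron and intermediate progenitor differentiation, had log2 changes of -0.79 on the A chip (limma adjusted p = 0.178) and -1.70 in the rest table (SE 0.676, limma adjusted p = 0.419). Different probe sets gave these Neurod1 values, so they are not the same reading in each tissue. Of 18 immature neuron genes on the A chip 3 fell and 0 rose, Dlx1 (-1.62), Dcx (-0.57) and Cd24a (-0.33), with limma adjusted p from 0.000182 to 0.026. Dlx1 was listed on 2 knockout arrays. It directs interneuron fate, while Dcx is a microtubule protein of migrating neurons and Cd24a a surface protein of young neurons. Of the 18, 17 had a negative log2 change and the median was -0.14, against -0.01 over all probe sets tested on the A chip. The share of negative changes over all probe sets was not computed. Of 23 in the rest table, 0 passed and 16 had a negative log2 change, with a median of -0.05. There Dcx stood at -0.40 (limma adjusted p = 0.229) and Gap43 at 0.19 (limma adjusted p = 0.434). Of the dividing cell genes 0 of 13 passed on the A chip (median 0.23) and 0 of 16 in the rest table (median 0.04). At an unadjusted p under 0.05, 4 of the 13 were positive and 0 negative, where 8.99% of all tested probe sets of the A chip were positive.

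The B chip, which holds most Sox11 probe sets, reads fewer genes of these lists. All 4 neurogenic and intermediate progenitor genes tested there had negative log2 changes, with a median of -0.45, and 0 passed. Pou3f2 stood at -0.84 (limma adjusted p = 0.0941) and Pou3f3 at -0.62 (limma adjusted p = 0.114); both are transcription factors of late progenitors and upper-layer neurons. Of 4 other Sox genes 0 passed (median -0.44), nor did any of 5 Notch pathway genes (median 0.18), 8 radial glia genes (median 0.06), 4 immature neuron genes (median -0.11) or 4 astrocyte markers (median 0.19). The radial glia gene Msi2 stood at 0.89 (log2, limma adjusted p = 0.0839). The Notch ligand Jag1 stood at 0.84 (log2, limma adjusted p = 0.114). Among the oligodendrocyte precursor markers 1 of 3 fell, Gpr17, a receptor of precursors about to differentiate (log2 change -1.63, limma adjusted p = 0.000802). The 1 meningeal marker tested, Tbx18, rose (log2 change 2.23, limma adjusted p = 1.1e-05).

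**Figure D4:**
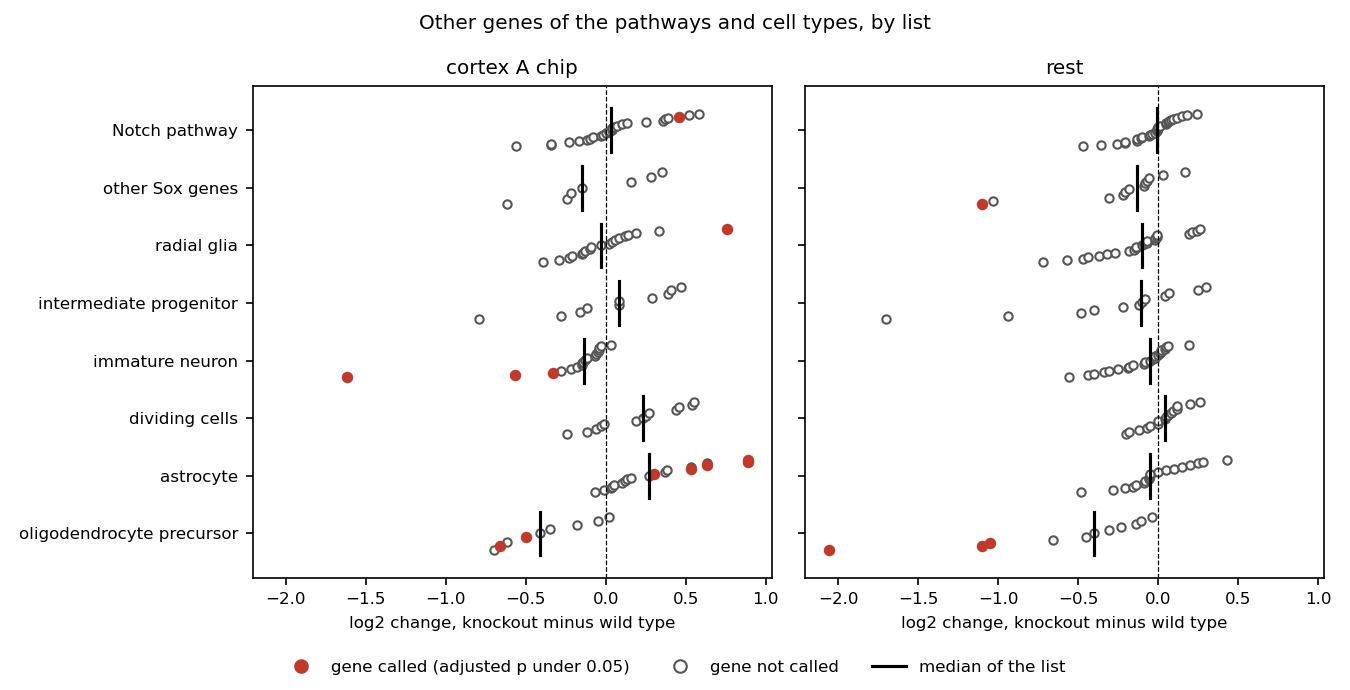
The log2 change (knockout minus wild type) of each tested gene in 8 lists, on the A chip (cortex) on the left and in the rest table on the right, with filled points for an adjusted p under 0.05 and a bar at the median of the list. Of the immature neuron genes in cortex, 17 of 18 lie left of 0, and the oligodendrocyte precursor medians are -0.41 in cortex and -0.40 in the rest table.

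Markers of other cell types were read in the same way, from lists chosen with earlier results of these data known. Of 19 astrocyte markers on the A chip 5 rose and 0 fell, and their summed signal (here and below over the genes listed on all 6 arrays) was 19847 to 22124 in knockout cortices, against 15725 to 17156 in wild-type cortices. The astrocyte list was uneven: 17 genes were positive and 2 negative, with a median log2 change of 0.27. Id3 and Gjb6 stood at 0.89 each, while Aldh1l1 (0.05) and Acsbg1 (-0.07) did not pass. Of the members that astrocytes share, 0 passed in the same tissue, with Sox2 at -0.13, Fabp7 at 0.15, the Sox9 probe sets at 0.43 and -0.10 and the Hes5 probe sets at 0.59 and -0.10. Among rest samples 0 of 19 passed and the astrocyte sums overlapped, at 36288 to 41887 in knockout samples and 39523 to 41786 in wild-type samples. Of 9 oligodendrocyte precursor markers on the A chip 2 fell, and their sums were 2724 to 3132 in knockout cortices, against 3336 to 3675 in wild-type cortices. Of 11 in the rest table, 3 fell, with sums of 8755 to 10602 in knockout samples, against 13177 to 13970 in wild-type samples. Meningeal and mural markers rose in 8 of 9 genes on the A chip, with sums of 6611 to 7900 in knockout cortices, against 2485 to 2866 in wild-type cortices. Of 12 in the rest table, 5 rose, with sums of 10512 to 10788 in knockout samples, against 4175 to 7734 in wild-type samples. Microglia and macrophage markers rose in 7 of 9 genes on the A chip, with sums of 3567 to 4007 in knockout cortices, against 2056 to 2353 in wild-type cortices. Of 8 in the rest table, 0 passed, though the median log2 change was 0.37. At an unadjusted p under 0.05, 5 of the 8 were positive, where 10.5% of all tested probe sets had such a p in either direction. The sums did not overlap, at 4101 to 4887 in knockout samples, against 3389 to 3780 in wild-type samples. Endothelial markers rose in 3 of 10 genes on the A chip and 0 of 10 in the rest table passed. The part of these cell types in the member values was not tested.

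A fit with the Y-linked marker as a term sets knockout replicate 3 alone against the wild type. In that fit the log2 change of Sox11 1453125_at on the B chip was -1.46 (limma adjusted p = 0.00408), which rests on the array that read 491.8, and 0 other member probe sets passed. The remaining Sox11 probe sets with a value had log2 changes of -0.85 to -0.34 in cortex, and those in the rest table -0.88 to -0.42. The Hes1 change was 0.58 in cortex and that of Prom1 was 0.30 in cortex and -0.14 in the rest table.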

How the data were processed

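Per the labels, total RNA was extracted with TRIZOL and labelled by the standard Affymetrix protocol. What the authors deposited is one linear intensity (signal) per probe set and array, computed with MAS5, per the submitters' processing notes; version, settings and the reason for blank cells are not given in the sources used here. Control probe sets were left out, and all columns mapped to a sample. Arrays of a table were brought to one mean, leaving out the outer 2% on either side, over probe sets listed on all 6, by factors of 0.9477 to 1.059. Probe sets were named through the platform annotation, with symbols updated from RefSeq by gene identifier. Knockout was compared with wild type within each table by limma 3.58.1 in R 4.3.3 (lmFit, eBayes with an intensity trend) on log2(signal + 16), with Benjamini-Hochberg adjustment over all tested probe sets and a call at 0.05. Effects were compared between tables by interaction in a joint fit. That fit took all arrays as independent, and tissue and array type are joined in it. The code was tested on simulated data. The members and lists were chosen with earlier results of these data known. Genes named from a list come from at most 4 of it, taken by size among the called ones and otherwise by p. Not all of these are printed. Notch2, Aldh1l1 and Acsbg1 on the A chip were named apart from this rule. The rule for genes of like pattern applied only to called members, of which there were 0. Alternatives were other scalings, offsets of 1 and 64, a 60th percentile filter, blanks set to the 5th percentile, other variance models, a replicate block, a sex-marker term and leaving out each array. The number of arrays limits the precision.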

Additional observations from a re-analysis of the deposited data

Results flagged for a closer look

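Prom1 had log2 changes of opposite sign in the tissues, which were read on different array types. All knockout cortices lay above, and all knockout samples of the rest table below, their wild-type arrays. Groups lay apart in these directions for 11.6% of all tested probe sets on the A chip and 9.13% in the rest table. The difference of the log2 changes was 0.67 (95% interval 0.28 to 1.05) and did not pass (limma interaction, adjusted p = 0.205). It lay between 0.44 and 0.74 over its 22 alternatives and passed in 0 of them. The change in the rest table alone was -0.13 without knockout replicate 2.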

How the results depend on the processing

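Of the member changes under the alternatives, 644 kept their sign and side of the threshold, 1 passed (Sox11 1453125_at on the B chip with the sex-marker term, which makes the count of called members there 1 in place of 0) and 13 changed sign, all of probe sets that were not called. With the sex-marker term Notch1 was -0.14 in cortex and Fabp7 -0.06 in the rest table. Leaving out single arrays gave Notch1 -0.04 to 0.09, Sox9 1424950_at -0.26 to 0.06 and Sox4 1419157_at -0.24 to 0.01 in cortex, and Fabp7 -0.06 to 0.08, Sox11 1431225_at -0.39 to 0.04, Sox9 1451538_at -0.01 to 0.38 and Eomes -0.70 to 0.02 in the rest table.

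Counts over all probe sets were 364 on the A chip (186 to 327 without single arrays, 82 with the sex-marker term), 22 on the B chip (9 to 25 without single arrays, 11 with blanks set low, 9 without trend) and 67 in the rest table (13 to 68 without single arrays, 103 with blanks set low, 11 without trend, 10 with the sex-marker term). The interaction with the A chip called 6 (3 to 28 without single arrays, 3 with an offset of 64, 1 with the filter, 17 with blanks set low, 3 without trend, 0 with the sex-marker term), and that with the B chip 0 (0 to 4 without single arrays, 2 with blanks set low; 521 of 6563 at an unadjusted p under 0.05). Arrays whose removal moved a count by over 1.5 times were knockout replicate 2 (186) and wild-type replicate 1 (218) on the A chip, knockout replicate 2 (9) and wild-type replicates 1 (11) and 2 (13) on the B chip, and knockout replicates 1 (27) and 2 (13) and wild-type replicates 1 (40) and 2 (30) in the rest table. For the A chip interaction they were cortex knockout replicates 1 and 3 and rest knockout and wild-type replicate 1 (3 each) and rest knockout replicate 3 (28), and for the B chip interaction cortex wild-type replicate 1 (1) and rest wild-type replicate 3 (4). The cause of these shifts was not tested. The replicate block gave 305, 12 and 142 calls in the A chip, B chip and rest tables and 0 called members. Same-numbered arrays correlated at -0.01 to 0.25 after removal of group means, and the block served only as an alternative. B chip arrays of the same number correlated at 0.16, 0.07 and 0.14, above the -0.16 to 0 of its other pairs. The best partner had the same number for 6 B chip arrays, 3 rest arrays and 1 A chip array. Whether same-numbered B chip arrays, which carry most Sox11 probe sets, were processed together was not tested.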
